A study of Mus musculus with 12 samples.

Results

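The 10 genes described here encode enzymes of branched-chain amino acid catabolism and the kinase that controls it, and were chosen by name from the 55367 distinct gene symbols in the files. They are *Bcat2*, *Bckdha*, *Bckdhb*, *Dbt*, *Bckdk*, *Ivd*, *Mccc1*, *Mccc2*, *Hibch* and *Hibadh*. RNA was sequenced from 12 samples of isolated single muscle fibers of the extensor digitorum longus (EDL), a fast hindlimb muscle of the mouse. Of these, 4 samples came from young mice of 3–4 months (Young), and 8 came from aged mice of 26–28 months. The aged fibers had been stained with Fluo-4, a fluorescent indicator of Ca2+, and were sorted under a fluorescence stereomicroscope into 4 samples of Fluo-4 normal fibers and 4 of Fluo-4 abnormal fibers, whose fluorescence was aberrant and apparently higher. The mice were C57BL/6 J with no transgene or drug named for these samples. The methods give the Jackson Laboratory as the source of the mice, whereas aged mice came from the National Center for Geriatrics and Gerontology, so age and source cannot be told apart. The study described abnormal fibers in aged males, and neither the sex of the sequenced mice nor the number of mice and fibers per sample is given in the labels. The p-values below therefore measure the spread between samples, which may in part be technical.

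Leucine, isoleucine and valine are the branched-chain amino acids, and skeletal muscle is a main site where their breakdown begins. Bcat2, the mitochondrial aminotransferase, takes off the amino group and leaves a branched-chain keto acid. The branched-chain keto acid dehydrogenase complex then commits the carbon skeleton to oxidation. Its E1 part is made of Bckdha and Bckdhb, its E2 core of Dbt, and its E3 part, Dld, is shared with pyruvate and 2-oxoglutarate dehydrogenase. Bckdk phosphorylates Bckdha and switches the complex off, and the phosphatase Ppm1k reverses this. Downstream, Ivd and the carboxylase made of Mccc1 and Mccc2 act on leucine, and Hibch and Hibadh act on valine. The carbon finally enters the TCA cycle or ketone metabolism in the mitochondria.

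In GRCm39, *Bcat2* lies on chromosome 7 from 45219577 to 45239152, *Bckdha* on chromosome 7 from 25326168 to 25358420 and *Bckdk* on chromosome 7 from 127502939 to 127510162. *Bckdhb* is on chromosome 9, *Dbt* and *Mccc1* on chromosome 3, *Ivd* on chromosome 2, *Mccc2* on chromosome 13, *Hibch* on chromosome 1 and *Hibadh* on chromosome 6. Libraries were made with SMART-Seq v4, which keeps no record of the transcribed strand, so reads from a gene and a gene on the other strand cannot be separated. Exons of *Bckdha* overlapped those of *B3gnt8* over 59.16% of their length, and *B3gnt8* reached 0.576 TPM at most. Exons of *Bcat2* overlapped the non-coding *0610005C13Rik* over 16.0% of their length, and that gene reached 0.416 TPM. No exonic overlap with a gene on the other strand was found for *Bckdk*. None of the 10 genes had a near-identical copy over 50% or more of its transcript.

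Values are TPM, in which each transcript is given as a share of all transcripts corrected for transcript length, so levels can be compared between genes. Each sample's total was 1000000 TPM, and how many reads stand behind a value is not known. The 8 muscle fiber markers, among them *Acta1*, *Ckm* and *Myh4*, summed to between 159000 and 215000 TPM in every sample, and *Myh4*, the fast type IIB myosin, made up 93.7% to 99.2% of the 4 adult myosin heavy chain genes in normal fibers, 96.9% to 98.6% in young fibers and 98.9% to 99.7% in abnormal fibers. Between abnormal and normal fibers, *Myh4* was called higher (log2 change 0.66, limma adjusted p = 0.020), whereas the changes of *Myh1* (−1.81, type IIX; adjusted p = 0.087), *Myh2* (−0.37, type IIA; adjusted p = 0.73) and the slow *Myh7* (0.15; adjusted p = 0.11) were not called. Of the 8 muscle fiber markers, *Mb*, which encodes myoglobin, was called lower between abnormal and normal fibers (log2 change −2.20, limma adjusted p = 0.00087) and between abnormal and young fibers (−1.64, adjusted p = 0.0042). Mitochondrially-encoded genes held 8.75% to 10.9% of the TPM in normal fibers, 7.35% to 8.01% in young fibers and 4.75% to 6.92% in abnormal fibers. Of 5 immune markers, the summed level was 1.79 to 3.01 TPM in young, 5.57 to 15.2 TPM in normal and 9.27 to 16.1 TPM in abnormal fibers, and of 5 Schwann cell markers it was 0.773 to 1.81, 1.42 to 6.60 and 3.63 to 7.98 TPM. Of these, *Cd3e* was called higher between abnormal and normal fibers, *Cd3e*, *Lyz2*, *Sox10* and *Mbp* between abnormal and young fibers, and *Lyz2* between normal and young fibers. The adipocyte markers *Adipoq*, *Plin1* and *Lep* were listed at 0 in all 12 samples. With *Cfd* and *Retn*, adipocyte markers summed to 0 in young and abnormal and at most 3.08 TPM in normal fibers. Erythroid markers summed to 33.1 to 121 TPM in young, 119 to 482 in normal and 44.4 to 236 in abnormal fibers. For fibroblast markers it was 18.9 to 34.8, 24.7 to 80.0 and 13.5 to 62.1 TPM. Smooth muscle markers reached 66.7, 21.5 and 11.3 TPM, endothelial markers 8.84, 18.4 and 11.4 TPM, and satellite markers 2.11 TPM at most. None of these was called in any comparison. The part of the markers of other cells in the results below was not tested.

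All 10 genes were expressed in every sample. In young fibers *Bckdk* had the highest level at 164.8 TPM ± 6.46 (SD, n = 4), followed by *Hibadh* at 126.6 ± 1.52 TPM, *Ivd* at 84.7 ± 1.62 TPM, *Bckdha* at 70.3 ± 4.05 TPM, *Bcat2* at 58.7 ± 5.03 TPM and *Bckdhb* at 35.9 ± 4.45 TPM. These neighbours did not overlap in their ranges over the 4 young samples. *Mccc2*, *Mccc1* and *Hibch* followed between 23.0 and 25.6 TPM with overlapping ranges, and *Dbt* was lowest at 8.87 ± 0.43 TPM. Thus the transcript of the E2 core was the least abundant of the complex, and the transcript of its inhibitory kinase the most abundant of the set. In abnormal fibers the order differed in 2 places. *Hibadh*, at 134.3 ± 5.46 TPM, stood above *Bckdk*, at 122.1 ± 6.80 TPM, without overlap of the samples, whereas these genes overlapped in normal fibers. The margin was small, with the lowest *Hibadh* sample at 130.58 TPM and the highest *Bckdk* sample at 130.47 TPM. *Bcat2* had a higher mean than *Bckdha* in abnormal fibers, but their ranges overlapped.

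The summed TPM of the 10 genes was 622.5 ± 4.19 in young, 628.5 ± 64.1 in normal and 599.9 ± 35.6 in abnormal fibers (mean ± SD, n = 4 each). The spread in normal fibers came with replicate 1, whose sum was 533.5 TPM, and which was the lowest of its group for 8 of the 10 genes. Abnormal replicate 2 was the highest of its group for 8 of the 10 genes, with a sum of 653.1 TPM. These samples also had the lowest and the highest TMM-type scaling factor of all 12 samples, at 0.81 and 1.17. Values without each of them are given where they change a result.

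**Figure D1:**
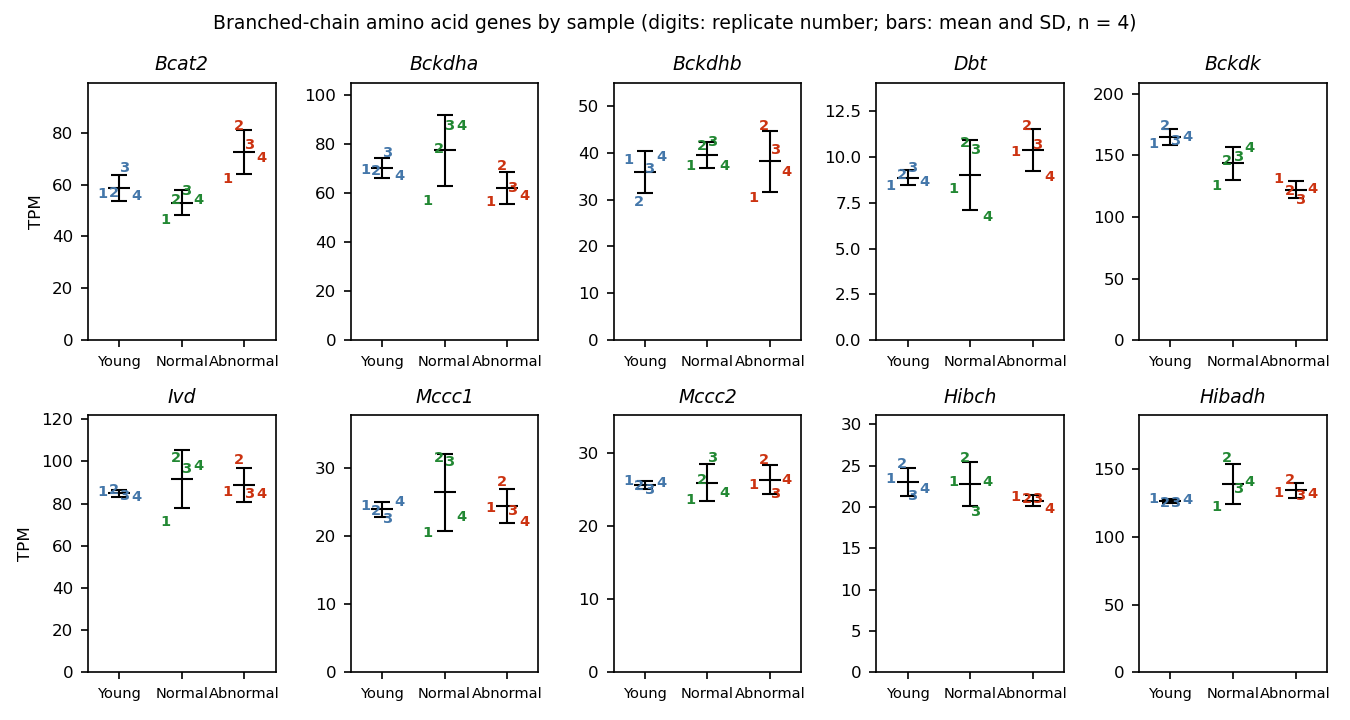
TPM (vertical axis, from 0) of the 10 genes in Young, Fluo-4 normal (Normal) and Fluo-4 abnormal (Abnormal) fibers, where each digit is a sample at its replicate number and bars give the mean and SD (n = 4). All 4 abnormal samples of *Bcat2* (62.4 to 82.7 TPM) sit above the normal samples, and all 4 of *Bckdk* (114 to 130.5 TPM) sit below the young samples.

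Abnormal and normal fibers were compared to see how aged fibers with and without the abnormal staining differed, and each was compared with young fibers. These comparisons share samples, so their results are given side by side and are not independent. Genes were tested with limma on log2(TPM + 1), and called at a Benjamini-Hochberg adjusted p-value under 0.05 over the 14429 genes tested, among which all 10 members were. Between abnormal and normal fibers 1 of the 10 genes was called, *Bcat2*, which was higher. Over all genes 9.35% were called in this comparison, 7.36% as higher and 1.99% as lower, and of genes with a group mean of 5 TPM or more, as all members were, 17.7% were called. *Bcat2*, *Bckdha* and *Bckdk* had an unadjusted p-value under 0.05, against 25.6% of all genes. Between abnormal and young fibers 1 of 10 was called, *Bckdk*, which was lower, against 8.50% of all genes, 6.09% as higher and 2.41% as lower, and 14.7% of genes of 5 TPM or more. At an unadjusted p-value under 0.05 there were 2 members, *Bcat2* and *Bckdk*, against 23.0% of all genes. Between normal and young fibers limma called 0 of 10, against 1.15% of all genes, 0.561% as higher and 0.589% as lower, and 2.19% of genes of 5 TPM or more. Here 1 of 10, *Bckdk*, had an unadjusted p-value under 0.05, against 12.9% of all genes. As deposited, the counts of called members were thus near or below the background share. With TMM-type factors, which bring the median of all genes tested to 0.00, 4 of the 10 were called between abnormal and normal fibers, all lower. Under this setting 5.88% of all genes were called, 3.76% as lower. At an unadjusted limma p-value under 0.05 there were 9 of 10 members, against 18.3% of all genes. On the deposited scale, between abnormal and normal fibers 3 of the 10 genes had a positive and 7 a negative log2 change. Over the 4 pairs of abnormal and normal samples with the same number, *Bcat2* and *Dbt* were higher and *Bckdha* lower in 4 of 4. *Mccc2* was higher in 3 of 4 pairs, and *Bckdhb*, *Bckdk*, *Ivd*, *Mccc1*, *Hibch* and *Hibadh* were lower in 3 of 4.

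The transaminase *Bcat2* was the gene that rose in abnormal fibers. Its levels were 56.4, 56.7, 66.2 and 55.5 TPM in young fibers, 46.2, 54.1, 57.7 and 54.1 TPM in normal fibers, and 62.4, 82.7, 75.3 and 70.2 TPM in abnormal fibers. Every abnormal sample was above every normal sample, and abnormal replicate 1 lay within the young range. The mean was 72.6 ± 8.55 TPM in abnormal against 53.0 ± 4.87 TPM in normal fibers, a ratio of 1.37, and the log2 change was 0.44 ± 0.10 (SE, 95% interval 0.23 to 0.65; limma adjusted p = 0.014). It was higher in abnormal fibers in 4 of 4 pairs of samples with the same number, by 0.37 to 0.60 on the log2 scale. Against young fibers the log2 change was 0.30 (0.09 to 0.51; limma adjusted p = 0.076), and for normal against young it was −0.15 (−0.35 to 0.06; adjusted p = 0.58). In bulk RNA of fibers, a different mix of cells and a different level per fiber cannot be told apart.

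The *Bcat2* difference depended on the scaling. In abnormal against normal fibers the median log2 change was 0.10 over all genes tested and 0.20 over the 6348 genes with a group mean of 5 TPM or more, and TMM-type factors left *Bcat2* with a log2 change of 0.22 (limma adjusted p = 0.13). Without abnormal replicate 2, the change was 0.38 (adjusted p = 0.051). In a fit of only these 2 groups the change was the same (adjusted p = 0.053). Over the alternatives tried, those added later left out, the adjusted p-value ran from 0.0067 to 0.13 and the direction was higher under each. In the settings added later, the replicate block with TMM-type factors gave 0.22 (limma adjusted p = 0.18). The block with the *Myh4* share gave 0.38 (adjusted p = 0.26). Of all genes called between abnormal and normal fibers, 78.7% were higher as deposited and 36.1% with TMM-type factors.

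For the E1 subunits of the dehydrogenase complex the data showed no call. *Bckdha*, the subunit that Bckdk phosphorylates, had 69.3, 69.0, 76.1 and 66.8 TPM in young fibers, 56.6, 78.1, 87.2 and 87.4 TPM in normal fibers, and 56.5, 71.0, 62.2 and 58.6 TPM in abnormal fibers. It was lower in the abnormal sample in 4 of 4 pairs with the same number, with log2 differences from −0.57 to −0.0038. Normal replicates 2 to 4 lay above every abnormal sample, whereas normal replicate 1 lay at the level of the lowest abnormal sample. In abnormal against normal fibers it had a log2 change of −0.30 ± 0.12 (SE, 95% interval −0.56 to −0.03; limma adjusted p = 0.15). With TMM-type factors it was −0.52 (adjusted p = 0.0033), and without normal replicate 1 it was −0.44 (adjusted p = 0.012), so both settings called it lower. It stayed uncalled under 20 of 23 alternatives, and with the *Myh4* share as a covariate it was −0.06 (limma adjusted p = 0.83). *Bckdhb* had 38.4, 29.4, 36.5 and 39.2 TPM in young, 37.2, 41.5, 42.4 and 37.2 TPM in normal, and 30.4, 45.7, 40.5 and 35.9 TPM in abnormal fibers. The groups overlapped, and the log2 change in abnormal against normal fibers was −0.06 (−0.33 to 0.20; limma adjusted p = 0.78).

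*Dbt*, the E2 core that passes the acyl group on to coenzyme A, had 8.42, 9.00, 9.40 and 8.66 TPM in young, 8.24, 10.7, 10.4 and 6.71 TPM in normal, and 10.3, 11.7, 10.7 and 8.94 TPM in abnormal fibers. It was higher in the abnormal sample in 4 of 4 pairs with the same number, but the groups overlapped. In abnormal against normal fibers the log2 change was 0.20 (−0.10 to 0.50; limma adjusted p = 0.40), an interval that holds a change as large as that of *Bcat2* as well as none. Against young fibers it was also 0.20 (−0.10 to 0.50; adjusted p = 0.43).

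The kinase *Bckdk* fell in abnormal fibers against young fibers. Its levels were 159, 174, 161 and 165 TPM in young fibers, 125, 145, 148 and 156 TPM in normal fibers, and 130.5, 121, 114 and 123 TPM in abnormal fibers. The 4 young samples were above all 8 aged samples, and the aged groups overlapped only through normal replicate 1, which was below abnormal replicate 1. The mean was 164.8 ± 6.46 TPM in young and 122.1 ± 6.80 TPM in abnormal fibers, a ratio of 0.741, with a log2 change of −0.43 ± 0.07 (SE, 95% interval −0.59 to −0.27; limma adjusted p = 0.0035). For normal against young fibers it was −0.20 (−0.36 to −0.04; adjusted p = 0.23), and for abnormal against normal fibers −0.23 (−0.39 to −0.07; adjusted p = 0.067). The last value was called with TMM-type factors, at −0.45 (adjusted p = 0.0022), and without normal replicate 1, at −0.29 (adjusted p = 0.016). It stayed uncalled under 18 of 23 alternatives, among them the replicate block (limma adjusted p = 0.17). With the *Myh4* share as a covariate it was −0.13 (adjusted p = 0.45).

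The fall of *Bckdk* against young fibers was called under every alternative tried, those added later left out, with the highest adjusted p-value, 0.034, under the replicate block. The call ended with the *Myh4* share and the replicate block together (log2 change −0.55, limma adjusted p = 0.44), a setting added later that called 0 of all genes tested. Among genes whose young and abnormal samples did not overlap, which were 16.2% of all genes tested, 3 members were found, *Bckdk*, *Hibch* and *Hibadh*. Normal and abnormal samples did not overlap for 1 member, *Bcat2*, against 14.0% of all genes, and normal and young samples for 1 member, *Bckdk*, against 7.98%.

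**Figure D2:**
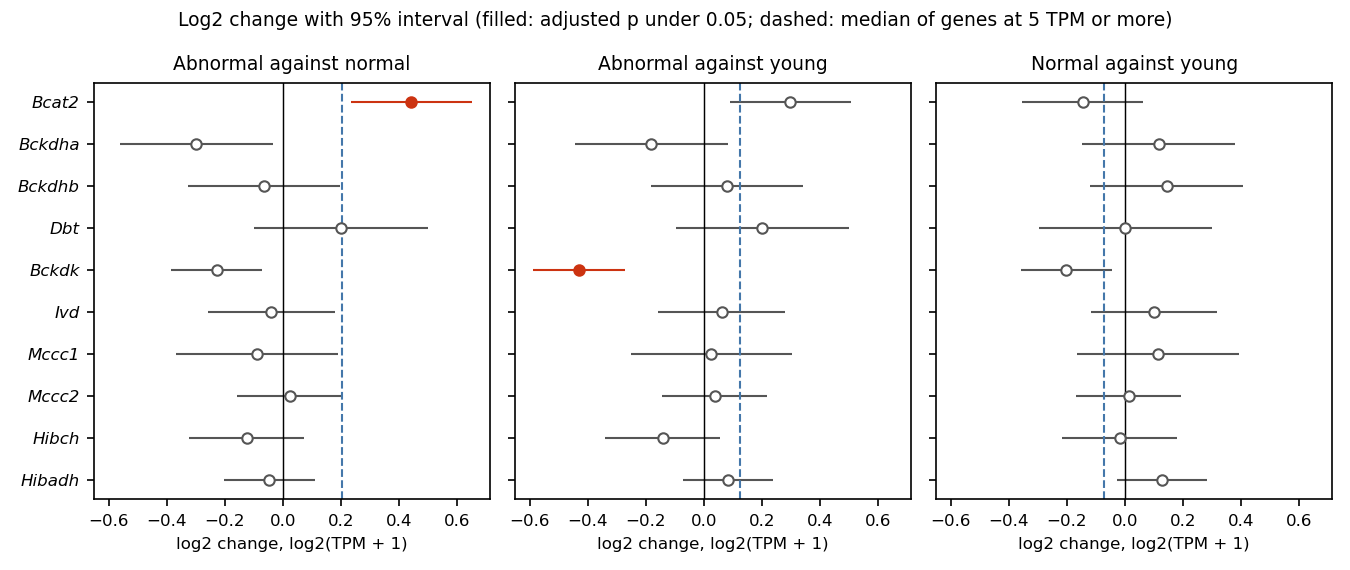
Log2 change of log2(TPM + 1) with its 95% interval (horizontal axis) for the 10 genes in the 3 comparisons, where filled points have an adjusted p-value under 0.05 and the dashed line is the median of genes at 5 TPM or more. *Bcat2* lies right of the line at 0.44 between abnormal and normal fibers, and *Bckdk* left of it at −0.43 between abnormal and young fibers.

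Because scaling moves all genes of a sample together, ratios of 2 genes within a sample were also compared. The ratio of the kinase to its substrate, *Bckdk* to *Bckdha*, was 2.30, 2.52, 2.12 and 2.47 in young, 2.20, 1.86, 1.70 and 1.78 in normal, and 2.31, 1.70, 1.83 and 2.10 in abnormal fibers. The young values were mostly higher, with normal replicate 1 and abnormal replicate 1 inside their range. The log2 difference was −0.32 for normal against young and −0.25 for abnormal against young (exact permutation p = 0.0571 and 0.0857, each adjusted to 0.343 over 12 tests). The ratio of the kinase to its opposing phosphatase, *Bckdk* to *Ppm1k*, was 64.4 ± 17.8 in young, 62.4 ± 19.7 in normal and 43.6 ± 12.0 in abnormal fibers. It was lower in the abnormal sample in 4 of 4 pairs with the same number. The log2 difference was −0.51 for abnormal against normal (exact permutation p = 0.20 unpaired and 0.125 over the pairs, the smallest that 4 pairs allow) and −0.57 for abnormal against young (exact permutation p = 0.171). The E1 subunits *Bckdha* and *Bckdhb* stood at a ratio of 1.99 ± 0.29, 1.95 ± 0.34 and 1.64 ± 0.15. Over the same pairs, this ratio was lower in the abnormal sample in 3 of 4, and that of *Bckdk* to *Bckdha* was higher in 3 of 4. The smallest p-value that 4 against 4 samples allow is 0.0286, which for 1 ratio alone would be adjusted to 0.343 over 12 tests, so a single ratio could not pass the adjusted threshold whatever its size.

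In the leucine branch, *Ivd*, the dehydrogenase of isovaleryl-CoA, had 85.6, 86.6, 83.7 and 83.1 TPM in young, 71.3, 101, 96.5 and 97.7 TPM in normal, and 85.3, 100.6, 84.5 and 84.4 TPM in abnormal fibers. Young samples were close to each other, whereas normal replicate 1 was low and abnormal replicate 2 high. Against normal fibers the log2 change of abnormal fibers was −0.04 (−0.26 to 0.18; limma adjusted p = 0.84). With TMM-type factors *Ivd* was called lower, at −0.26 (adjusted p = 0.035).

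The subunits of methylcrotonyl-CoA carboxylase, *Mccc1* and *Mccc2*, were at nearly equal levels. *Mccc1*, the biotin-carrying subunit, had 24.5, 23.7, 22.6 and 25.0 TPM in young, 20.4, 31.5, 31.0 and 22.8 TPM in normal, and 24.2, 27.98, 23.7 and 22.0 TPM in abnormal fibers. *Mccc2* had 26.1, 25.5, 24.9 and 25.9 TPM in young, 23.6, 26.2, 29.3 and 24.6 TPM in normal, and 25.6, 29.1, 24.4 and 26.4 TPM in abnormal fibers. The groups overlapped for both genes. The ratio of *Mccc1* to *Mccc2* was 0.935 ± 0.023 in young, 1.01 ± 0.15 in normal and 0.929 ± 0.063 in abnormal fibers. It was lower in the abnormal sample in 3 of 4 pairs with the same number. The log2 changes between abnormal and normal fibers were −0.09 (−0.37 to 0.19) for *Mccc1* and 0.02 (−0.16 to 0.20) for *Mccc2*, with limma adjusted p-values of 0.70 and 0.89.

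In the valine branch, *Hibch*, which hydrolyses 3-hydroxyisobutyryl-CoA, had 23.4, 25.2, 21.4 and 22.2 TPM in young, 23.0, 25.9, 19.4 and 23.0 TPM in normal, and 21.2, 21.0, 21.0 and 19.8 TPM in abnormal fibers. Every abnormal sample was below every young sample, by a small margin. The log2 change was −0.14 against young (−0.34 to 0.06; limma adjusted p = 0.40) and −0.12 against normal fibers (−0.32 to 0.07; adjusted p = 0.43). *Hibadh*, the next enzyme, had 128, 125, 125 and 128 TPM in young, 122, 158, 135 and 141 TPM in normal, and 132, 142, 131 and 132 TPM in abnormal fibers. Here every abnormal sample was above every young sample, also by a small margin, with a log2 change of 0.08 (−0.07 to 0.24; limma adjusted p = 0.54). Between abnormal and normal fibers it was −0.05 (−0.20 to 0.11; adjusted p = 0.72), and with TMM-type factors *Hibadh* was called lower at −0.27 (adjusted p = 0.032).

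The median log2 change of the 10 genes was −0.06 between abnormal and normal fibers, beside 0.10 over all genes tested and 0.20 over genes of 5 TPM or more. With TMM-type factors it was −0.28, beside 0.00. With the *Myh4* share as a covariate it was 0.14, beside 0.17 over all genes tested and 0.28 over genes of 5 TPM or more. Between abnormal and young fibers it was 0.05, beside 0.07 over all genes tested and 0.12 over genes of 5 TPM or more. With TMM-type factors it was −0.12, beside 0.001 and −0.04, so its sign changed with the scaling while it stayed below these medians. Between normal and young fibers it was 0.06, beside −0.02 and −0.07. The study's criteria, here read as at least 2-fold between the abnormal and young group means and an unadjusted limma p-value under 0.05 between abnormal and normal fibers, were met by 487 genes, 3.38% of those tested, and by 0 of the 10. The ratios of the abnormal to the young mean ran from 0.741 for *Bckdk* to 1.24 for *Bcat2*.

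**Figure D3:**
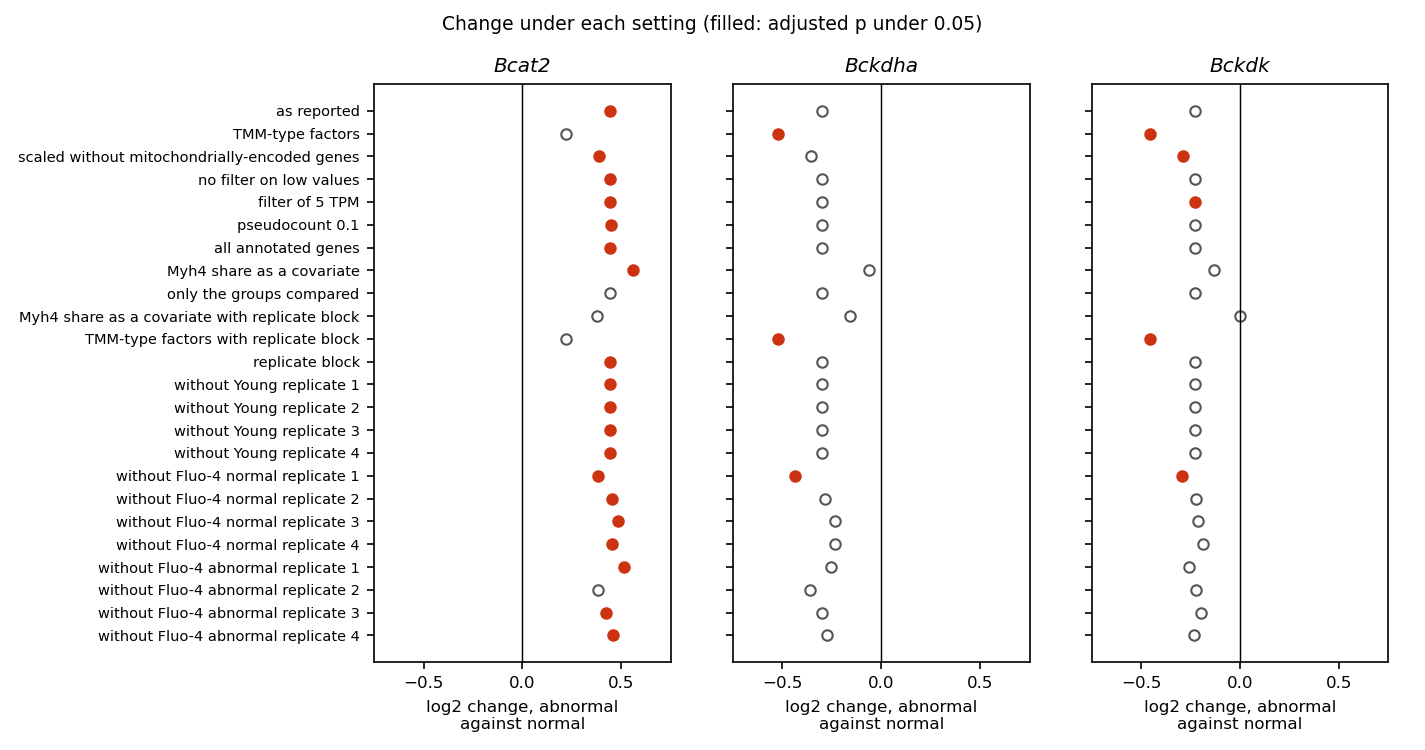
Log2 change between abnormal and normal fibers (horizontal axis) of *Bcat2*, *Bckdha* and *Bckdk* under each setting (vertical axis), where filled points have an adjusted p-value under 0.05. *Bcat2* stays above 0 and is lowest, at 0.22, with TMM-type factors, where *Bckdha* and *Bckdk* reach −0.52 and −0.45.

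The other genes of the pathway were 20 transporters and enzymes, of which 19 were tested. *Bcat1*, the cytosolic aminotransferase, was above 0 in 2 of 12 samples and reached 0.051 TPM at most, so *Bcat2* was the branched-chain aminotransferase detected above this level. Between abnormal and normal fibers 1 of the 19 was called higher and 2 lower, against 7.36% and 1.99% of all genes. At an unadjusted limma p-value under 0.05 there were 7 of the 19 (36.8%), against 25.6% of all genes. Between abnormal and young fibers 1 was called higher and 1 lower, against 6.09% and 2.41% of all genes, and 2 had an unadjusted limma p-value under 0.05, against 23.0%. Between normal and young fibers limma called 0 of the 19, against 1.15% of all genes. Here 3 had an unadjusted p-value under 0.05, against 12.9% of all genes. The median log2 change of the 19 was 0.11, 0.11 and 0.02 in these comparisons.

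*Slc7a5*, the light chain of the plasma membrane transporter of large neutral amino acids, rose most. It had 0.598, 0.756, 0.748 and 0.532 TPM in young, 0.710, 1.16, 1.27 and 0.952 TPM in normal, and 1.77, 2.89, 2.68 and 3.05 TPM in abnormal fibers. Every abnormal sample was above all 8 others, although the level was low. The ratio of means was 2.54 against normal and 3.94 against young fibers. On the log2(TPM + 1) scale, which understates the change of low genes, the change was 0.82 ± 0.15 (SE; limma adjusted p = 0.0057) and 1.10 ± 0.15 (adjusted p = 0.00083). It was higher in 4 of 4 pairs with the same number. TMM-type factors and the replicate block together ended the call against normal fibers, at 0.69 (adjusted p = 0.056). The *Myh4* share and the replicate block together, which called 0 of all genes, ended it against normal (limma adjusted p = 0.27) and young fibers (0.44). The call stayed under 20 of 22 alternatives against normal and 21 of 22 against young fibers.

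*Slc25a44*, the carrier that brings branched-chain amino acids into mitochondria, had 12.4, 12.7, 12.5 and 9.71 TPM in young, 7.17, 10.8, 10.6 and 10.6 TPM in normal, and 10.8, 17.0, 14.5 and 13.2 TPM in abnormal fibers. It was higher in the abnormal sample of each of the 4 pairs, but the groups overlapped. Abnormal against normal fibers gave a log2 change of 0.46 (0.13 to 0.80; limma adjusted p = 0.079), and with the replicate number as a block it was called (adjusted p = 0.043). It stayed uncalled under 20 of 23 alternatives, over which the change ran from 0.26 to 0.69 and the adjusted p-value reached 0.32.

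*Dld*, the E3 subunit, had 170.2, 144, 160.0 and 173 TPM in young, 137, 181, 176 and 163 TPM in normal, and 129.9, 136, 128 and 123 TPM in abnormal fibers. All 4 abnormal samples were below all others, with 4 of 4 pairs lower than normal, and *Dld* was lower against normal (log2 change −0.34 ± 0.09, limma adjusted p = 0.030) and against young fibers (−0.32 ± 0.09, adjusted p = 0.040). Both calls were close to the threshold. The first was lost with the replicate number as a block (adjusted p = 0.061) and under 11 of 23 alternatives in all, and the second under 14 of 23. With the *Myh4* share as a covariate the change against normal fibers was −0.08 (adjusted p = 0.58).

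*Echs1*, the hydratase that acts in the valine and isoleucine branches and also in fatty acid oxidation, had 129, 101, 113 and 125 TPM in young, 114, 156, 155 and 138 TPM in normal, and 92.4, 108, 109 and 111 TPM in abnormal fibers. Abnormal samples were below all normal samples, in 4 of 4 pairs, and overlapped the young samples. The log2 change was −0.41 ± 0.11 against normal fibers (limma adjusted p = 0.029), a call lost under 10 of 23 alternatives, and −0.15 against young fibers (adjusted p = 0.45). With the *Myh4* share as a covariate it was −0.12 against normal fibers (adjusted p = 0.53).

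*Ppm1k*, the phosphatase that reactivates the complex, was at 2.67 ± 0.54 TPM in young, 2.50 ± 0.83 TPM in normal and 2.98 ± 0.94 TPM in abnormal fibers, a log2 change of 0.20 between abnormal and normal fibers with a wide interval (−0.27 to 0.66; limma adjusted p = 0.61). *Klf15*, a transcription factor known to raise *Bcat2* expression in muscle, was at 43.1 ± 1.62, 44.2 ± 13.0 and 49.0 ± 13.6 TPM, and its log2 change was 0.15 (−0.33 to 0.64; adjusted p = 0.70). It was one of 5 regulators of oxidative metabolism, of which 1, *Perm1*, was called lower between abnormal and normal fibers, with a log2 change of −1.15 ± 0.15 (limma adjusted p = 0.00099). *Perm1* is named outside the rule for genes, after its values were seen.

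**Figure D4:**
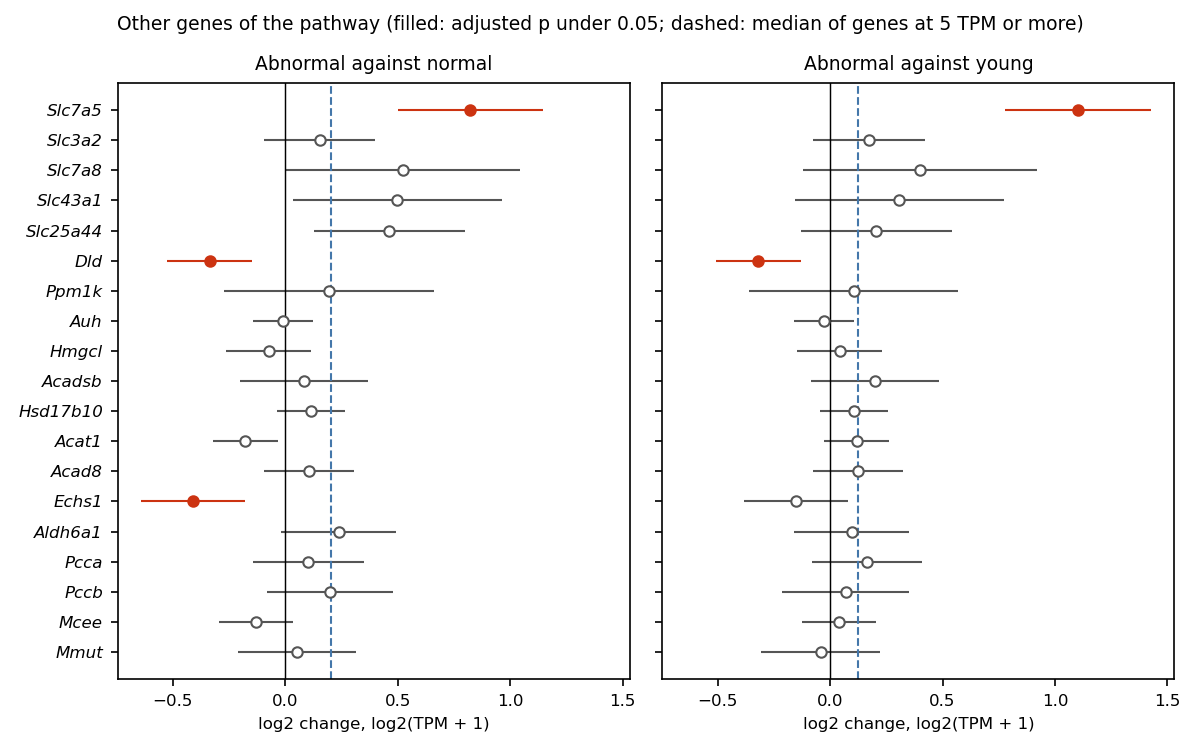
Log2 change of log2(TPM + 1) with its 95% interval (horizontal axis) for 19 other genes of the pathway, ordered by role from transport to propionyl-CoA, where filled points have an adjusted p-value under 0.05 and the dashed line is the median of genes at 5 TPM or more. *Slc7a5* stands apart at 0.82 against normal and 1.10 against young fibers, and *Dld* lies at −0.34 and −0.32.

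The branched-chain genes were set beside 2 neighbouring mitochondrial pathways. Of 17 TCA cycle genes, 10 were called lower and 0 higher between abnormal and normal fibers, and the median was −0.30 on the log2 scale, and 9 were lower against young fibers. Of 18 fatty acid oxidation genes, which include *Echs1*, 12 were lower and 0 higher between abnormal and normal fibers, with a median of −0.34, and 2 were lower against young fibers. Between normal and young fibers 17 of these 18 had a positive change, with a median of 0.23. There 2 were called higher, against 0.561% of all genes, and 0 of the 17 TCA cycle genes were called. Over all genes 1.99% were called lower between abnormal and normal fibers and 2.41% between abnormal and young fibers. Of the 10 branched-chain genes 0 were called lower between abnormal and normal fibers, where limma gave 2 lower ones, *Bckdha* and *Bckdk*, an unadjusted p-value under 0.05. Against young fibers 1 of the 10, *Bckdk*, was called lower. This share of 10% was near the 11.1% of the fatty acid oxidation genes, whereas it was 52.9% for the TCA cycle. With TMM-type factors all lists shifted down between abnormal and normal fibers. Of the branched-chain genes 4 of 10 were called lower, with a median of −0.28, against 3.76% of all genes. For the TCA cycle it was 15 of 17 genes with a median of −0.53, and for fatty acid oxidation 18 of 18 with a median of −0.56. The difference between the lists was not tested.

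**Figure D5:**
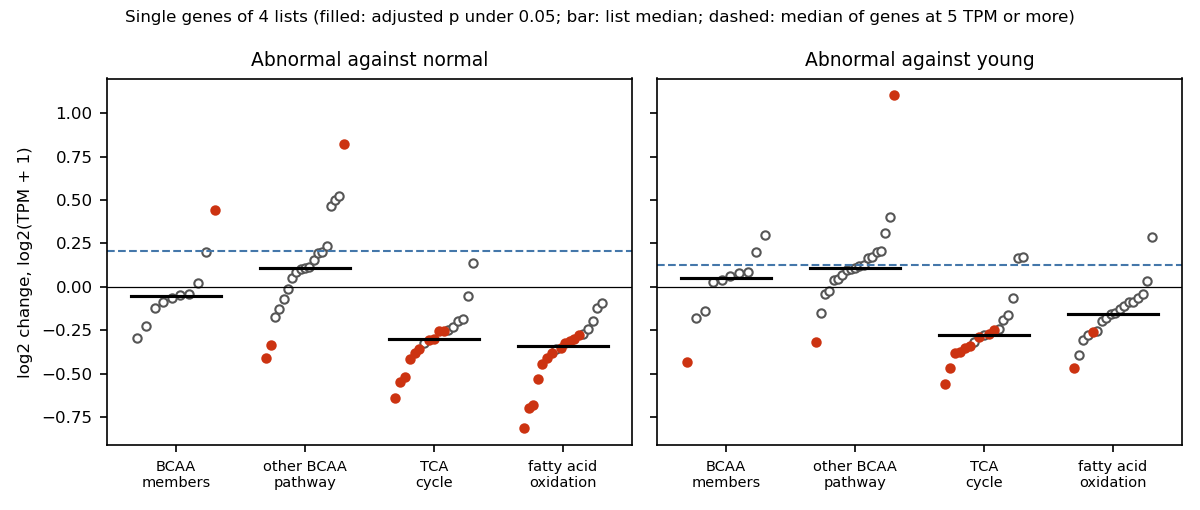
Log2 change of log2(TPM + 1) (vertical axis) of single genes of the 10 members, 19 other genes of the pathway, 17 TCA cycle genes and 18 fatty acid oxidation genes, between abnormal and normal (left) and abnormal and young fibers (right), where filled points have an adjusted p-value under 0.05, bars are list medians and the dashed line is the median of genes at 5 TPM or more. The bars of the members lie at −0.06 and 0.05, and those of the TCA cycle at −0.30 and −0.28.

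The genes whose pattern over the 12 samples was most like that of *Bckdha* were sought among 5993 genes with a mean of 5 TPM or more, by the mean absolute difference of centred log2(TPM + 1) values. The nearest were *Pnpla2*, which encodes adipose triglyceride lipase, at 0.061, *Hadha* of fatty acid oxidation at 0.090, *Cs* of the TCA cycle at 0.093, the mitochondrial elongation factor *Gfm1* at 0.095, and *Tcaim* at 0.097. The nearest member was *Ivd* at rank 37, with a difference of 0.116, and *Mccc1* followed at rank 89. The E1 partner *Bckdhb* was at rank 595 and *Bcat2*, at rank 3725, was the farthest member. All samples share these libraries and their scaling, so these distances are a description.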

How the data were processed

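RNA-seq was made from 12 samples of isolated EDL fibers. Per the labels and the methods, SMART-Seq v4 libraries were made from 10 ng of RNA, DRAGEN was used for alignment to GRCm39, and the authors deposited TPM values, with 1 file per sample. The release of their annotation is not given in the sources used here, and GENCODE vM39 was used for coordinates and gene classes. Each file held 55487 lines, and the 114 symbols on several lines were summed. Read counts were not used here, so depth and counting error are unknown.

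Protein-coding and mitochondrially-encoded genes with a mean of at least 0.02 TPM in 1 group, the limit of the methods, were tested on log2(TPM + 1), with a pseudocount of 1. A model of the 3 groups was fitted in limma 3.58.1 (R 4.3.3) with a variance trend, and p-values were two-sided and adjusted by the Benjamini-Hochberg method over all 14429 genes. Ratios were compared by a two-sided exact permutation test (70 arrangements of 4 and 4 samples), where the smallest p-value is 2 in 70. The methods do not name the group set against young fibers in their 2-fold criterion, and the abnormal group mean and the limma p-value were used. The fit was tested on simulated data.

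All members were named, together with the pathway genes called between abnormal and normal fibers, *Ppm1k*, *Dld*, *Bcat1*, *Slc25a44* and *Klf15*, the 5 genes nearest to *Bckdha* and the myosin heavy chain genes. The members, lists and tests were chosen with earlier results of these data known.

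The labels number the replicates 1 to 4 in each group. Over 4760 genes of 10 TPM or more, values centred on the group mean were correlated between aged samples. Abnormal and normal samples of equal number gave 0.49, 0.41, 0.46 and 0.33, samples of unequal number −0.42 to 0.27, and the former were taken as pairs. Young samples did not pair with aged samples. The alternatives tried were scaling without mitochondrially-encoded genes, TMM-type factors with trims of 30% and 5%, no filter or 5 TPM, a pseudocount of 0.1, all annotated genes, only the groups compared, the *Myh4* share as a covariate, the replicate block and leaving out each sample. The block with the *Myh4* share or with TMM-type factors, and the criteria of the methods under other settings, were added after the data were seen. Figures were made with Python 3.11.15 and matplotlib 3.10.9.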

Additional observations from a re-analysis of the deposited data

Results flagged for a closer look

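In groups of 4 samples, a sample was flagged where its gap to the nearest other sample, divided by the range of the group, was above Dixon's 95% critical value. Of 123 groups examined 12 were flagged, and chance flags about 1 in 20. Among the 10 members these were the highest young sample of *Bcat2* (replicate 3, 66.2 TPM, a share of the range of 0.892), the lowest normal sample of *Ivd* (replicate 1, 71.3 TPM, 0.833), the highest abnormal sample of *Ivd* (replicate 2, 100.6 TPM, 0.942), the lowest abnormal sample of *Hibch* (replicate 4, 19.8 TPM, 0.858) and the highest abnormal sample of *Hibadh* (replicate 2, 142 TPM, 0.870).

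Among other genes of the pathway, *Slc25a44* was flagged for its lowest young sample (replicate 4, 9.71 TPM, 0.896) and its lowest normal sample (replicate 1, 7.17 TPM, 0.924), and *Echs1* for its lowest abnormal sample (replicate 1, 92.4 TPM, 0.852). The coactivator *Ppargc1a* was flagged for its lowest normal sample (replicate 1, 10.8 TPM, 0.862). *Myh2*, the myosin of fast oxidative type IIA fibers, was flagged for its highest sample in each group, at 17.2 TPM in young replicate 3 (0.908), 34.6 TPM in normal replicate 2 (0.890) and 10.6 TPM in abnormal replicate 2 (0.925). Normal replicate 1 and abnormal replicate 2 thus account for 3 and 3 of the 12 flags, and their effect on the members is given with the values without them.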

How the results depend on the processing

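No direction of a called gene reversed. Of 690 values of single members under the alternatives, 670 stayed on their side of the threshold, 14 gained a call and 6 lost one. Of 1302 values of the other pathway genes, 1251 stayed, 13 gained and 38 lost a call. The cause of these differences was not tested. The criteria of the methods passed 0 of 10 members under each of 23 alternatives. Leaving out samples gave the ratios p-values of 0.0571 or more, the smallest that 3 against 4 samples allow in the exact permutation test.

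Between abnormal and normal fibers, where 1349 genes were called, TMM-type factors called 848 genes with 4 members (*Bckdha*, *Bckdk*, *Ivd* and *Hibadh*, all lower) and a member median of −0.28. The *Myh4* share called 820 genes, 1 other pathway gene and gave a member median of 0.14. The fit of only the groups compared called 566 genes, 1 other pathway gene and 0 members, with 2 members at an unadjusted limma p-value under 0.05. Scaling without mitochondrially-encoded genes called 2 members among 933 of 14392 genes, and the 5 TPM filter 2 members among 1710 of 6348 genes. Leaving out each sample gave 606 to 1420 genes, 0 to 3 members, 1 to 4 other pathway genes and member medians of −0.12 to 0.01. Without abnormal replicate 2 the counts were 606 genes and 0 members, with 3 members at an unadjusted p-value under 0.05. Without normal replicate 1 there were 934 genes and 3 members. The other pathway genes called came to 1 without normal replicate 2 or 4 or abnormal replicate 2, 3 or 4.

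Between abnormal and young fibers, where 1227 genes were called, TMM-type factors called 1139 genes (7.89%) with 2 members and gave a member median of −0.12. The 5 TPM filter called 1341 of 6348 genes with 2 members. Other pathway genes called came to 1 with no filter, the 5 TPM filter, all annotated genes and the *Myh4* share. Leaving out each sample gave 576 to 1677 genes, 1 to 2 members and 1 to 2 other pathway genes. The count of genes was 706, 808 and 576 without young replicate 1, 3 and 4, and 700 and 744 without abnormal replicate 2 and 4. There were 2 members, *Bcat2* added, without normal replicate 1 or abnormal replicate 1, where 1677 and 1192 genes were called. Between normal and young fibers, where 166 genes were called, the 5 TPM filter called 266 and the fit of only the groups compared 69. TMM-type factors, scaling without mitochondrially-encoded genes, no filter and the 5 TPM filter each called 1 other pathway gene. Leaving out each sample gave 45 to 183 genes and 0 to 1 other pathway genes, with 67, 45 and 48 genes without young replicate 1, 2 and 3, and 71, 86 and 51 without normal replicate 2, 3 and 4.

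For the paired aged samples, the replicate block called 1150 genes between abnormal and normal fibers. *Bcat2* stayed called (adjusted p = 0.022), *Dld* lost and *Slc25a44* gained its call, and no other call of a member or other pathway gene changed. Young samples share only a number with aged ones. There the block called 684 genes with *Bckdk* (adjusted p = 0.034) and 1 other pathway gene against abnormal fibers, and 0 genes against normal fibers, where 1983 had an unadjusted limma p-value under 0.05. The block with TMM-type factors called 485, 741 and 0 genes in the 3 comparisons (1912 unadjusted in the last), with 2 members and a member median of −0.28 between abnormal and normal fibers, and 1 other pathway gene and a median of −0.12 against young fibers. The block with the *Myh4* share called 0 genes, members and other pathway genes in each comparison, with 2461, 1611 and 1631 genes at an unadjusted p-value under 0.05, and a member median of 0.10 between abnormal and normal fibers.

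TPM is a share of a total, so a change of abundant transcripts moves all others, and no read counts or spike-ins fix an absolute scale here. With 4 samples per group, the 95% interval of *Dbt* between abnormal and normal fibers ran from −0.10 to 0.50 on the log2 scale.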
